A study of Mus musculus with 16 samples.

Results

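Gene expression was measured in 5 primary mammary tumours of MMTV-Neu mice, out of 16 samples in the series, the other 11 being tumours grown after transplantation that are not described here. They were all the samples described as primary tumours, and the rule used no measured value. MMTV-Neu mice carry the Neu (Erbb2) oncogene under the mouse mammary tumour virus promoter, which is active chiefly in mammary epithelium, and develop mammary carcinomas after a latency. All 5 tumours were of the FvB strain, were labelled as below 1 cm in diameter and are called primary 1 to primary 5 here. Each tumour's total RNA was isolated with Trizol, labelled with biotin and read on 1 Illumina mouse bead array, in which gene-specific probes sit on beads. Neither the age of the mice nor whether tumours shared a mouse is given in the sources used here. The question addressed was which genes and gene groups differ between tumours driven by the same oncogene. Because no tumour was measured on a second array, the spread between tumours includes the spread between arrays, and no test between tumours was possible.

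A mammary carcinoma holds malignant epithelium together with fibroblasts that deposit collagens and proteoglycans, endothelial cells and pericytes of blood vessels, and lymphoid and myeloid immune cells. Myoepithelial cells, fat and skeletal muscle lie next to it in the mammary region. In bulk RNA, fewer cells of a type and less RNA per cell cannot be told apart. Cells that divide induce genes for DNA synthesis in S phase and genes for the spindle and chromosome segregation from G2 into mitosis.

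Between 12513 and 12930 probes were detected per tumour at a detection p under 0.05, which was 48.7% to 50.3% of 25697 probes, and the mean raw intensity ranged from 805 to 935. Detection on at least 2 of the 5 arrays was required, which left 9199 named genes, each represented by its probe with the highest mean. Values are log2 normalized intensities. The faintest detected probe of a tumour had a value of 5.60 to 5.73, so that a gene below this in a tumour has only an upper bound there and its fold is given as at least the bound. No named probe for Erbb2 was analysed here. The epithelial part of the tissue label was borne out by the keratins Krt8 and Krt18, which form the intermediate filaments of luminal epithelium. These 2 keratins do not by themselves show mammary origin or malignancy. Other luminal genes, Krt19, Ehf, Foxa1 and Pgr, did not pass the detection filter. Krt8 had values of 13.87, 13.86, 14.26, 13.98 and 13.58 in primary 1 to 5, and Krt18 had values of 13.16, 13.36, 13.54, 13.49 and 13.25.

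Most genes were close to constant across the 5 tumours. The median SD of a gene was 0.26 (quartiles 0.18 and 0.38), and the median range between the highest and the lowest tumour was 1.54-fold. The range was at least 2-fold for 2004 of 9199 genes (21.8%) and at least 4-fold for 363 genes (3.95%). Over all genes the highest value fell in primary 1 to 5 for 22%, 18.9%, 19.8%, 16.5% and 22.8%, and the lowest for 17.3%, 29%, 14%, 19.1% and 20.6%. These shares are the background for the counts of list members below. Of the 363 genes, 137 (37.7%) were highest in primary 1 and 116 (32%) in primary 2, against 16 (4.41%) in primary 3 and 47 (12.9%) each in primary 4 and 5. The lowest value fell in primary 2 for 137 of them (37.7%) and in primary 5 for 109 (30%), against 39 (10.7%), 49 (13.5%) and 29 (7.99%) in primary 1, 3 and 4. A single combination, highest in primary 1 and lowest in primary 2, took 89 of the 363, and highest in primary 2 with lowest in primary 5 took a further 71.

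Primary 2 stood apart from the other tumours. Primary 1 and 2 differed at least 2-fold for 810 genes, the most of the 10 pairs, whereas primary 3 and 4 differed for 300 and primary 1 and 3 for 312. Primary 5 differed from every other tumour for 521 to 716 genes. The first principal component held 41.9% of the variance, with primary 2 at 39.9 and the others between -24 and 5.6, and the second held 27.7%, with primary 5 at -33.4 and the others between -4.8 and 15.3. Without primary 2, 206 genes had a range of at least 4-fold in place of 363.

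**Figure D1:**
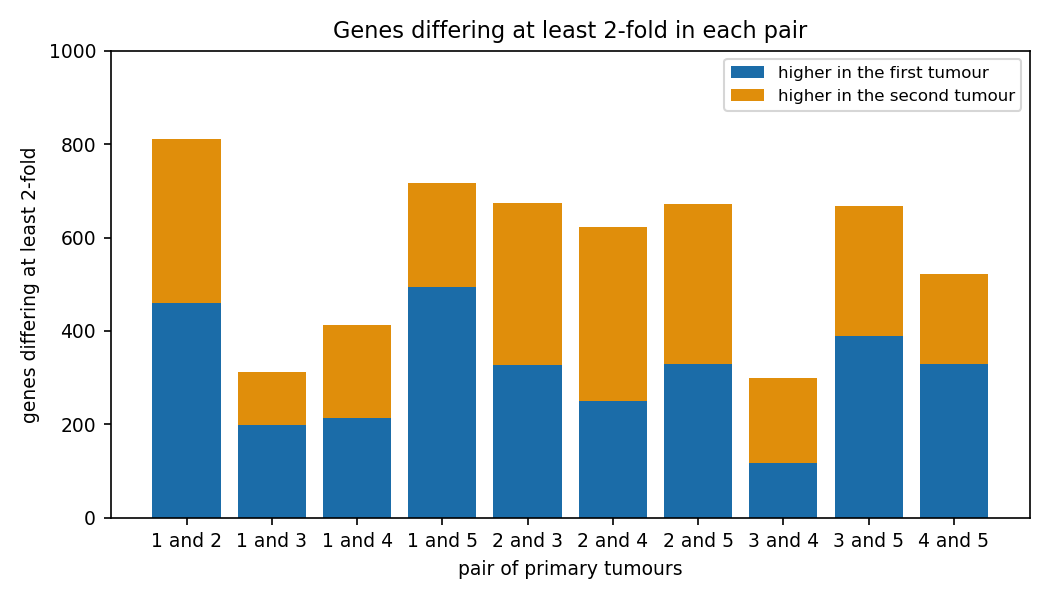
Number of genes differing at least 2-fold (vertical axis) in each of the 10 pairs of primary tumours, divided by colour into genes higher in the first and in the second tumour of the pair. The bar of primary 1 and 2 is the tallest at 810 genes, and those of 3 and 4 (300) and of 1 and 3 (312) are the shortest.

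Different probes of a gene often put primary 1 and 2 in a different order. Of 3410 further, dimmer probes of 2440 genes, 32.7% were highest in primary 2 and 31.8% were lowest in primary 1. For the brightest probes of the same genes these shares were 20.4% and 18.6%. Actb, which encodes cytoplasmic beta-actin, showed it plainly and was chosen after its values were seen. Its brightest probe had values of 14.88, 14.51, 14.36, 14.27 and 14.39 in primary 1 to 5. Another probe had 14.49, 11.31, 14.17, 13.79 and 14.85, and yet another had 11.85, 13.50, 11.74, 12.21 and 12.84. These probes put primary 2 lowest in one case and highest in the other. The 2 dimmest Actb probes had 5.41 and 5.74 in primary 2, against 8.60 to 10.62 in the other tumours. Per-tumour values of RNA quality were not among the sources used here, and the part of RNA quality or of probe position in primary 2's low values was not tested. The order of further probes is given beside each gene group whose order of tumours is described, where such probes were kept.

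The brightest probes, those with the highest mean intensity, were led by ribosomal protein genes. Among the 20 brightest were 12 ribosomal protein genes (Rplp1, Rpl41, Rpl38, Rpl37, Rps12, Rps20, Rps24, Rpl10, Rps4x, Rpl23, Rpl39 and Rps14). The rest were Dbi, an acyl-CoA binding protein, Lcn2, the secreted iron-siderophore carrier lipocalin 2, Trf, transferrin, Wfdc18, a small secreted protein, Csn3, kappa-casein of milk, Hspa8, a constitutive heat shock protein, Fth1, the ferritin heavy chain, and Igfbp5, an IGF binding protein. All 20 had means between 15.67 and 15.96, at the top of the scale, where differences between tumours are compressed. Their ranges lay between 1.03-fold and 1.22-fold. The values of different probes were not ranked against each other, since probes differ in how well they bind.

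The least variable genes combined some of these bright probes with probes of middle intensity. Trappc1, a subunit of a vesicle tethering complex, had values of 11.98, 11.98, 11.98, 12 and 11.99 in primary 1 to 5 (SD 0.01). Next were Trf, Pitpnb, Zc3hc1, Sft2d2, Stap2, Dctn6, Olfr1166, Dbi and Rps24, with SDs between 0.01 and 0.03. All 10 genes were detected on all 5 arrays, so a filter of all 5 arrays necessarily gave the same 10. Olfr1166, annotated as an olfactory receptor, had values of 5.90 to 5.97, close to the detection limit, where a low spread says little. Dimmer further probes of some of these genes varied more. A Zc3hc1 probe had 5.59 in primary 1 and 7.80 in primary 2, while others had ranges of 0.33 and 0.43 log2 units. Further probes of Sft2d2 had ranges of 0.90 and 0.35, and those of Stap2 and Trappc1 had 0.77 and 0.11. The 23 measured ribosomal protein genes had list scores between -0.05 and 0.04, and the 35 genes of oxidative phosphorylation had scores between -0.10 and 0.09. A list score is the mean over the measured genes of a list of the log2 value minus the gene's own mean over the 5 tumours.

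**Figure D2:**
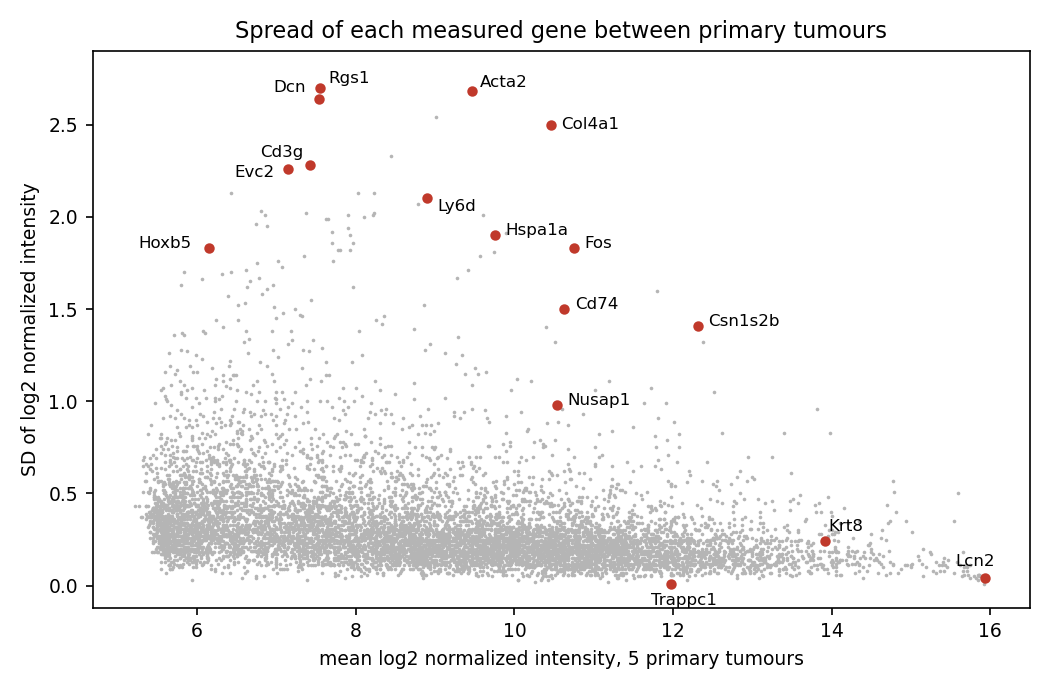
SD over the 5 primary tumours (vertical axis, log2 normalized intensity) against the mean (horizontal axis, same scale), with 1 point per measured gene and 16 named genes in red. Most genes lie near the median SD of 0.26, and the highest points include Rgs1 (2.70), Acta2 (2.68) and Dcn (2.64).

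The most variable genes included known matrix, vessel and lymphocyte genes together with genes of other kinds. The 20 genes of largest SD were Rgs1, Acta2, Dcn, Bgn, Col4a1, Ednrb, Cd3g, Evc2, Cav1, Rgs5, Fosb, Ly6d, Otx1, Nkg7, Angpt2, Xcl1, Egfl7, Cd8b1, Esm1 and Sparc, with SDs between 2.01 and 2.70. Of the next 20, Emcn, Serping1, Col6a1, Lox, Loxl1, Aqp1, Igfbp3, Ccn2, Itgae, Hspa1a, Serpinf1, Robo4, Fos, Hoxb5, Tmem204, Ccl5, Wfdc12, Cldn2, Col4a2 and Ctsw, all had SDs of at least 1.79. Rgs1, a regulator of G-protein signalling expressed in activated lymphocytes, had a value of 11.70 in primary 2, 8.81 in primary 4, 6.15 in primary 3 and 5.88 in primary 1, and was not detected in primary 5 (5.21). Its range was at least 62.7-fold. Acta2, the smooth muscle actin of myoepithelium, pericytes and myofibroblasts, had values of 11.95, 10.51, 10.41 and 9.48 in primary 1, 3, 4 and 5, and was not detected in primary 2 (4.93). The difference between primary 1 and primary 2 was at least 81.3-fold, and 3 further Acta2 probes were also highest in primary 1 and lowest in primary 2. Evc2, a ciliary protein gene, was present in primary 2 (9.11), 4 (9.33) and 5 (7.76) and not detected in primary 1 (4.81) and 3 (4.72).

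Fibroblast and matrix genes were high in primary 1 and 3 and low in primary 2, 4 and 5. Their score was 1.55 in primary 1, -1.34 in primary 2, 0.85 in primary 3, -0.47 in primary 4 and -0.59 in primary 5 (25 of 32 listed genes measured). The range was at least 4-fold for 20 of the 25 members, against 3.95% of all genes. Primary 1 was the highest tumour for 23 members, against 22% of all genes, and primary 2 the lowest for 16, against 29% of all genes. Both primary 1 and 3 exceeded both primary 4 and 5 for 20 members, against 22.9% of all genes. The numbers of these members detected were 25, 9, 25, 13 and 15 in primary 1 to 5. Some members, such as Lum, Ogn and Col3a1, were detected in primary 1 and 3 alone and passed the filter only through these tumours. Their order, and the detection counts, are therefore partly set by the filter. Without the filter, the 30 genes with a named probe had scores of 1.35, -1.13, 0.72, -0.42 and -0.52.

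Dcn, the collagen-binding proteoglycan decorin, had values of 10.80, 4.74, 9.70, 5.41 and 7.07 in primary 1 to 5. It was not detected in primary 2 and 4, and its range was at least 36.7-fold. Col1a1, a chain of fibrillar type I collagen, had values of 8.63, 4.64, 7.52, 5.60 and 5.17 and was detected in primary 1 and 3 alone. Lox, which crosslinks collagen, was likewise detected in those 2 tumours, at 8.98 and 8.76, and lay at 4.95 to 5.54 elsewhere. Serpinf1, the secreted anti-angiogenic factor PEDF, was not detected in primary 4 (5.62), against 10.09 in primary 1 and 9.17 in primary 3. Some matrix genes lay above their own 5-tumour mean in primary 4. Bgn, the proteoglycan biglycan, had values of 11.82, 5.07, 10.40, 9.30 and 8.44, and Sparc, a matrix glycoprotein also made by vessels, had 11.35, 6.25, 10.52, 10.57 and 9.32. For both, primary 4 lay well above primary 2. Of 5 further probes of fibroblast genes, 4 were highest in primary 1 and 4 lowest in primary 2, against 17.4% and 21.6% of all further probes. But primary 1 and 3 exceeded 4 and 5 in 2 of the 5, against 18.3% of all further probes.

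Endothelial genes separated primary 1, 3 and 4 from primary 2 and 5. The score was 0.91, -1.73, 0.54, 0.74 and -0.48 in primary 1 to 5 (18 of 25 genes measured). In all 18 members the values of primary 1, 3 and 4 exceeded those of both other tumours, an order held by 16.1% of all genes. Primary 2 was lowest for 17 of the 18, against 29% of all genes. Emcn, the endothelial sialomucin endomucin, had values of 9.56, 4.82, 9.14, 9.39 and 7.58. Egfl7, a secreted factor of the vessel wall, had 9.6, 4.83, 9.29, 9.47 and 7.90, and Flt1, a VEGF receptor, had 9.12, 4.87, 8.82, 8.60 and 7.15. The 3 genes were not detected in primary 2 and stood at an intermediate value in primary 5. Pecam1, the junction protein CD31, had a narrower range, with values of 6.89, 5.31, 6.81, 7.28 and 6.2. Primary 2 detected 4 of the 18 members and primary 5 detected 13, while primary 1, 3 and 4 detected all. Some members, such as Cdh5, Tek and Eng, were detected in primary 1, 3 and 4 alone, so their order is partly set by the filter. Kdr, Flt4, Sox17, Vwf and Clec14a did not pass it. Without the filter, the 23 genes with a named probe had scores of 0.75, -1.35, 0.41, 0.56 and -0.37. Of these genes, 16 were highest in primary 1, 4 in primary 4 and 3 in primary 5. Of 6 further probes of endothelial genes, 4 held the order of primary 1, 3 and 4 above 2 and 5, against 12.9% of all further probes. Without primary 2, the range of the endothelial score was 1.39 in place of 2.64.

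Primary 4 combined low fibroblast genes with high endothelial genes. The tumours of highest fibroblast score, primary 1 and 3, also had positive endothelial scores, but primary 4 lay below the mean for the first (-0.47) and above it for the second (0.74). Angpt2, a ligand of the endothelial Tie2 receptor made by remodelling vessels, was highest in primary 4 at 10.73, against 8.86, 5.17, 8.63 and 7.78 in primary 1, 2, 3 and 5. Esm1, a proteoglycan of endothelial tip cells, was also highest there at 10.09, with 8.93, 4.74, 8.27 and 7.48 in the others. Basement membrane and pericyte genes were a set assembled after their values were seen. They were lowest in primary 2 for 15 of 15 members that passed the filter (29% of all genes). The same held for 3 of 3 further probes (21.6% of all further probes). Col4a1, a chain of basement membrane collagen IV, had values of 12.44, 6.23, 11.72, 11.73 and 10.18. Rgs5, a pericyte marker, had 9.78, 4.63, 9.15, 9.33 and 7.26.

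Most smooth muscle and myoepithelial genes were highest in primary 1, and most were lowest in primary 2, but some members went another way. The score was 0.84, -1.16, 0.41, -0.07 and -0.01 in primary 1 to 5 (14 of 21 genes measured). Primary 1 was the highest tumour for 9 members, against 22% of all genes, and primary 2 the lowest for 9, against 29%. Of 10 further probes, 7 were highest in primary 1 and 6 lowest in primary 2, against 17.4% and 21.6% of all further probes. Actg2, the enteric smooth muscle actin, was detected in primary 1 (7.65) and primary 3 (5.65). The basal keratins Krt14 and Krt17 were instead highest in primary 3, at 7.33 and 7.70, against 4.69 to 5.78 and 4.62 to 6.41 in the other tumours. Trp63, the transcription factor p63 of basal epithelium, was not detected in primary 4 (5.67) and had values of 6.86 to 7.69 elsewhere.

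**Figure D3:**
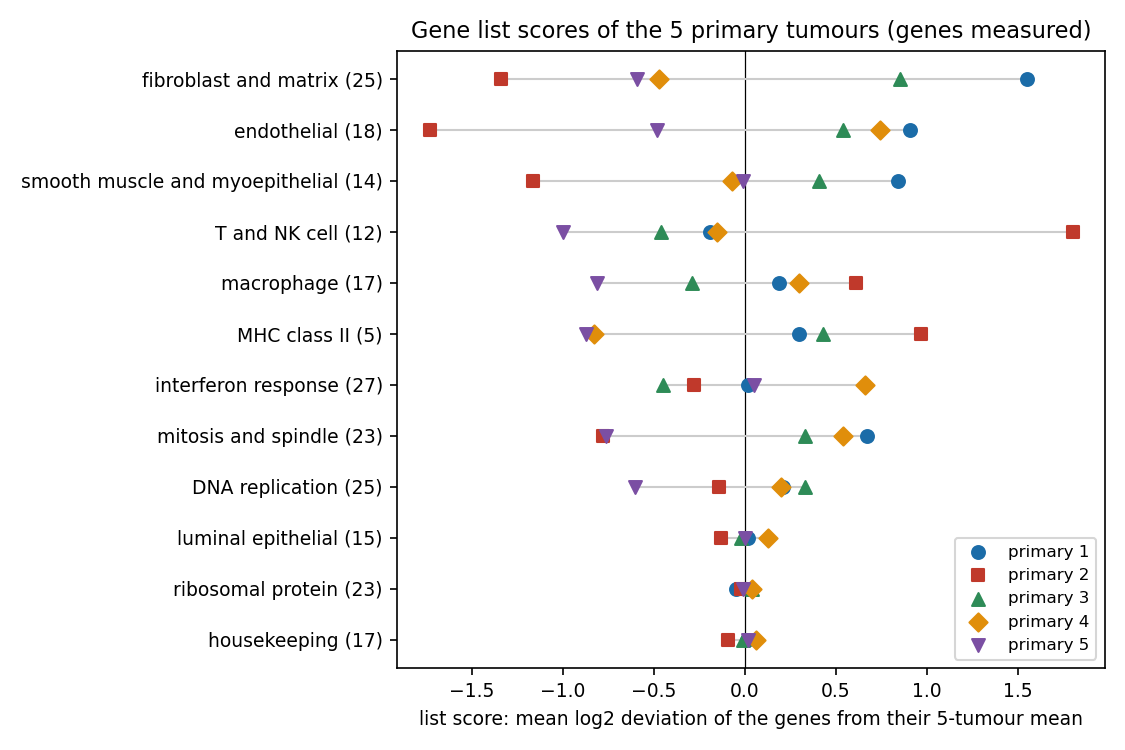
Scores of 12 gene lists (rows, number of measured genes in brackets) in the 5 primary tumours, given as the mean log2 deviation of the list's genes from their 5-tumour mean. Fibroblast, endothelial and T cell lists spread over more than 2.6 log2 units, with primary 2 at 1 end of each, whereas the luminal, ribosomal and housekeeping lists have ranges of at most 0.25.

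T and NK cell genes were high in primary 2 and lowest in primary 5. The score was -0.19, 1.80, -0.46, -0.15 and -1.0 in primary 1 to 5 (12 of 30 genes measured). Primary 2 was the highest tumour for 9 members, against 18.9% of all genes, and primary 5 the lowest for 9, against 20.6%. Cd3g, a chain of the T cell receptor complex, had values of 7.04, 11.23, 6.94, 6.85 and 5.06, at least 45.2-fold between primary 2 and primary 5. Cd8b1, the beta chain of the CD8 co-receptor, had 6.38, 10.14, 5.66, 7.12 and 4.95. Nkg7, a protein of cytotoxic granules, had 6.31, 10.25, 6.48, 6.16 and 4.85. In each case primary 2 was more than 3 log2 units above the next tumour, while primary 5 was not detected.

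The chemokines made by activated T and NK cells had the same highest tumour. Ccl5 had values of 7.17, 11.11, 7.29, 7.62 and 6.49, and Xcl1 had 6.87, 10.73, 6.70, 7.27 and 5.29. Itgae, the integrin chain CD103 of lymphocytes that reside in epithelium, had 7.93, 10.92, 7.60, 7.52 and 5.66. The filter of 2 arrays left out 16 T and NK cell genes. Those detected in primary 2 alone were Cd2, Cd3e, Cd6 and Cxcr3, and Cd28 was detected in primary 5 alone. The rest, Cd4, Cd8a, Gzma and Gzmb among them, were detected in no tumour. Cd3e had a value of 9.18 in primary 2 against at most 5.57 elsewhere, Cd6 had 7.22 against at most 5.14, and Cd2 had 6.98 against at most 5.16. With all 28 genes that have a named probe, 16 were detected in primary 2, against 10, 11, 11 and 6 in primary 1, 3, 4 and 5. Exceptions were Prf1, which encodes perforin and was highest in primary 5 (12.32) and lowest in primary 3 (9.88), Cd27 (8.17 in primary 2, 8.19 in primary 5) and Icos (6.45 in primary 1, 5.94 in primary 2). Only 1 further probe of a T cell gene was kept, and it was highest in another tumour, so that the order rests on single probes. Without primary 2, the range of the T and NK cell score was 0.84 in place of 2.80.

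B cells could hardly be followed with these probes. The score of the B and plasma cell list was -0.75, 0.15, -0.23, 0.30 and 0.53 in primary 1 to 5, from 5 of 24 listed genes (Ly6d, Derl3, Xbp1, Fcer2a and Spib), most of them also expressed by other cells. Cd79a, Ms4a1 and Pax5 did not pass the filter, nor did Cd79b, a chain of the B cell receptor complex, which was detected in primary 2 alone (5.80, against at most 5.49). Of 18 genes with a named probe, 3, 6, 4, 4 and 5 were detected in primary 1 to 5. Ly6d, which is listed as a lymphoid gene but is also made by epithelium, was not detected in primary 1 (5.26) and had values of 10.63, 9.20, 9.74 and 9.68 in primary 2 to 5. A further Ly6d probe had 5.07 in primary 1 and 8.50 to 9.86 in the others.

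Macrophage genes were lowest in primary 5, with a narrower spread than T cell genes. The score was 0.19, 0.61, -0.29, 0.30 and -0.81 in primary 1 to 5 (17 of 25 genes measured), and 14 members were lowest in primary 5, against 20.6% of all genes. Primary 2 was highest for 12 members, against 18.9% of all genes. C1qb, a chain of complement C1q made by macrophages, had values of 10.48, 11.31, 9.90, 10.22 and 8.96. Mrc1, the mannose receptor, had 8.43, 8.70, 7.83, 7.92 and 6.52. Lyz1 and Lyz2, the lysozymes, had near-identical sequences that a probe may not separate. Lyz1 was highest in primary 1 (14.32) and Lyz2 in primary 4 (12.07), and both were lowest in primary 5, at 12.16 and 10.02. Of 4 further probes of macrophage genes, 3 were lowest in primary 5, against 19.6% of all further probes.

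MHC class II genes divided the tumours in another way, with primary 1, 2 and 3 above primary 4 and 5. This held for 5 of 5 measured members, of 11 listed, against 11.4% of all genes. It also held for 4 of 4 further probes, all of Cd74 or H2-Ab1, against 8.97% of all further probes. In H2-DMa the margin was small, with 8.18 in primary 3 and 8.14 in primary 5. H2-Aa and H2-Eb1 were among the listed genes that did not pass the filter. Cd74, the invariant chain that escorts class II molecules, had values of 10.97, 12.43, 11.57, 9.19 and 8.99. H2-Ab1, a class II beta chain, had 10.94, 11.96, 11.26, 8.90 and 8.93. Ciita, the transcriptional activator of the class II genes, was detected in primary 1, 2 and 3 (6.11, 6.23 and 6.53) and not in primary 4 and 5 (5.46 and 5.38). The macrophage score of primary 4 was 0.30, above that of primary 3 at -0.29, so that low class II genes and low macrophage genes did not coincide there.

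MHC class I genes, a set assembled after their values were seen, were lowest in primary 3. This held for 8 of the 13 genes that passed the filter, against 14% of all genes. It also held for 2 of 2 further probes, against 12.1% of all further probes. H2-D1, a classical class I heavy chain, had values of 11.26, 11.46, 9.22, 11.34 and 11.05, and B2m, the common light chain, had 15.75, 15.72, 14.92, 15.74 and 15.56. H2-T23, a non-classical class I gene, had 12.56, 12.04, 10.76, 12.41 and 11.95. H2-Q2 went another way and was lowest in primary 1 (7.18). Class I genes share long stretches of sequence, so a probe may read more than 1 of them.

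Interferon response genes were highest in primary 4 and lowest in primary 3. The score was 0.02, -0.28, -0.45, 0.66 and 0.05 in primary 1 to 5 (27 of 34 genes measured). Primary 4 was the highest for 21 members, against 16.5% of all genes, and primary 3 the lowest for 17, against 14%. Rsad2, the antiviral protein viperin, had values of 9.19, 9.61, 9.15, 11.82 and 10.39. Ifit3, which belongs to the interferon-induced tetratricopeptide proteins, had 9.01, 9.10, 8.07, 10.63 and 9.42. Isg15, a ubiquitin-like modifier, had 8.42, 7.91, 8.43, 9.66 and 8.41. Of 14 further probes of these genes, 9 were highest in primary 4 and 8 lowest in primary 3, against 15.9% and 12.1% of all further probes. Without primary 4 the range of the list score was 0.49 in place of 1.11.

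Promoter sequence was examined for some of the lists, among them housekeeping genes, which hardly varied. List members with a named probe were used whether or not they passed the detection filter. The motif shares therefore do not describe the measured genes alone. A total of 6 motifs were searched in 9 lists, on both strands of the 250 bases before the gene start, with 1 RefSeq promoter per gene (GRCm38.p6). The interferon-stimulated response element, searched as GAAA, any 2 bases and GAAA again, was present in 12 of 26 interferon promoters (46.2%), against 821 of 27025 promoters in the table (3.04%). The promoters of Isg15 and Ifit3 are printed because each holds 2 matches, in capitals.
Isg15 (chr4:156200819-156201068, minus strand): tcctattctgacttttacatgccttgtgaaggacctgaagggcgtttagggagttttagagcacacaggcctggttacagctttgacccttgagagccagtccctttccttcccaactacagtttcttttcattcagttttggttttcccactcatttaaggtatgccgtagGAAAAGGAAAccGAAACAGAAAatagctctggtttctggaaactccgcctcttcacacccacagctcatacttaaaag
Ifit3 (chr19:34583279-34583528, plus strand): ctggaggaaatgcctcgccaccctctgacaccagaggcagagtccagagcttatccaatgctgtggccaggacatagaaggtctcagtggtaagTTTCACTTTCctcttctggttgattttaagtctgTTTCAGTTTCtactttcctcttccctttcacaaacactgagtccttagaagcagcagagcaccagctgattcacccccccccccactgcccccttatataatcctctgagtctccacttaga
The Oasl1 promoter held no match, although Oasl1 itself, a 2'-5' oligoadenylate synthetase-like gene, was highest in primary 4 (8.39, against 6.31 to 7.30 elsewhere). A match is a string of letters in this window, not a measured binding site.

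**Figure D4:**
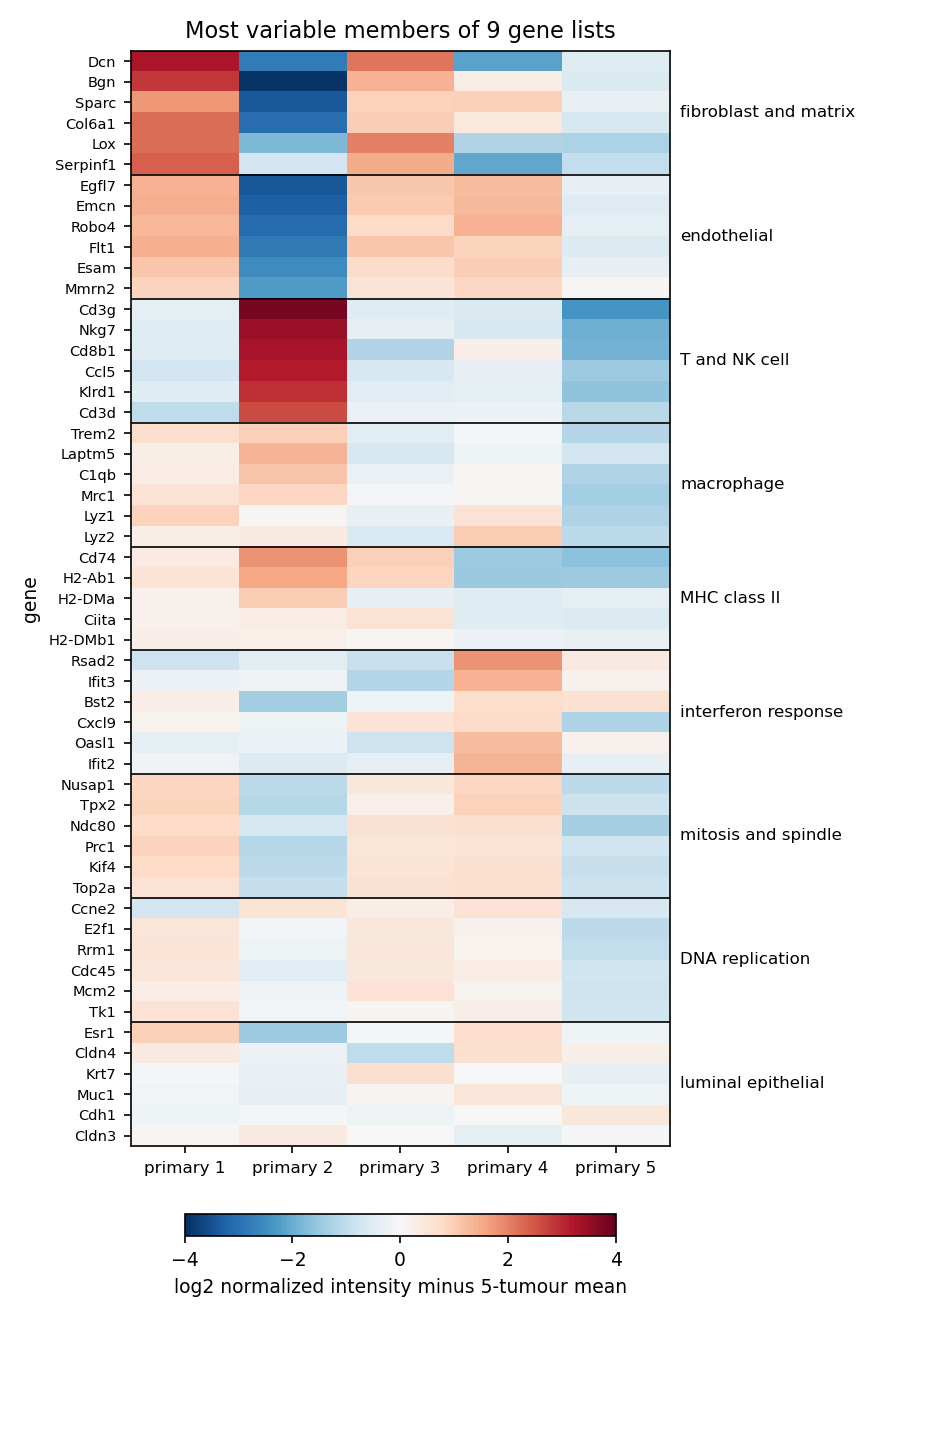
Log2 normalized intensity minus the 5-tumour mean (colour, red above and blue below) for the up to 6 most variable members of 9 gene lists (rows) in primary 1 to 5 (columns). Primary 2 is blue for fibroblast and endothelial genes and red for T and NK cell genes, and the mitosis genes are blue in primary 2 and 5.

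Mitosis and spindle genes divided the tumours in the same way as the endothelial genes. The score was 0.67, -0.78, 0.33, 0.54 and -0.76 in primary 1 to 5 (23 of 39 genes measured). In all 23 members primary 1, 3 and 4 exceeded primary 2 and 5, against 16.1% of all genes, and the range of every member was at least 2-fold, against 21.8% of all genes. Nusap1, a spindle-associated protein, had values of 11.39, 9.45, 11, 11.36 and 9.50. Top2a, the topoisomerase that decatenates chromosomes, had 10.47, 8.93, 10.50, 10.52 and 9.05. Prc1, which bundles the microtubules of the central spindle, had 12.73, 10.68, 12.29, 12.36 and 11. Each of these genes had 3 high tumours and 2 low ones, with no overlap between them. Of 11 further probes of mitosis genes, 10 held the same order, against 12.9% of all further probes. But 9 of the 11 were lowest in primary 5 (19.6% of all further probes), while 16 of the 23 brightest probes were lowest in primary 2 (29% of all genes). Which of the low tumours, primary 2 or 5, was lower therefore depended on the probe.

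DNA replication genes had a narrower spread, with primary 5 below the rest. The score was 0.21, -0.14, 0.33, 0.20 and -0.60 in primary 1 to 5 (25 of 32 genes measured). The order of primary 1, 3 and 4 above 2 and 5 held for 20 of the 25, against 16.1% of all genes. Primary 5 was lowest for 20 of the 25, against 20.6% of all genes. Primary 2 exceeded primary 5 for 22 of the 25 replication genes, and for 7 of the 23 mitosis genes, against 44.8% of all genes. Mcm2, a subunit of the replicative helicase, had values of 9.47, 8.98, 9.74, 9.29 and 8.34. Rrm1, the large subunit of ribonucleotide reductase, had 10.57, 9.83, 10.53, 10.19 and 9.06, and E2f1, a transcription factor of the G1 to S transition, had 9.81, 9.22, 9.78, 9.50 and 8.26. Pcna, the sliding clamp, was lowest in primary 2 (7.38) and had 7.74 in primary 5. Of 10 further probes of replication genes, 7 were lowest in primary 5, against 19.6% of all further probes. Without primary 5 the range of the list score was 0.47 in place of 0.93.

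The CCAAT box was present in 21 of 27 mitosis promoters (77.8%), against 34.5% of all promoters in the table and 14 of 26 replication promoters (53.8%). The cell cycle homology region, searched as TTTGAA, was present in 9 of the 27 (33.3%), against 16.3% of all promoters. This motif had shares of 27.8% in T and NK cell, 26.3% in fibroblast, 25% in housekeeping and 23.1% in interferon promoters as well. The promoters of Top2a and Cdk1, the mitotic kinase (10.77, 9.91, 10.86, 11.02 and 9.26 in primary 1 to 5), are printed because they hold 6 and 3 matches to CCAAT on either strand, in capitals.
Top2a (chr11:99024190-99024439, minus strand): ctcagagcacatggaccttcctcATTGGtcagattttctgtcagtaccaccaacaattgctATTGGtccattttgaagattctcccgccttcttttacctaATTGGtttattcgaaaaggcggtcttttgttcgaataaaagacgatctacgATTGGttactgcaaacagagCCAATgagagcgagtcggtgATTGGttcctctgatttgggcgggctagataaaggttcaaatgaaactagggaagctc
Cdk1 (chr10:69352913-69353162, minus strand): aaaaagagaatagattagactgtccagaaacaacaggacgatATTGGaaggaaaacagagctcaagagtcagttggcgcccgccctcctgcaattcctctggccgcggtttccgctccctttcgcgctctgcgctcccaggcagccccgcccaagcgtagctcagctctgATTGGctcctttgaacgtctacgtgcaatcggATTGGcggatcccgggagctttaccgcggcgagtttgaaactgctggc
The promoter of Nusap1, the most variable member of the list, held no CCAAT.

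**Figure D5:**
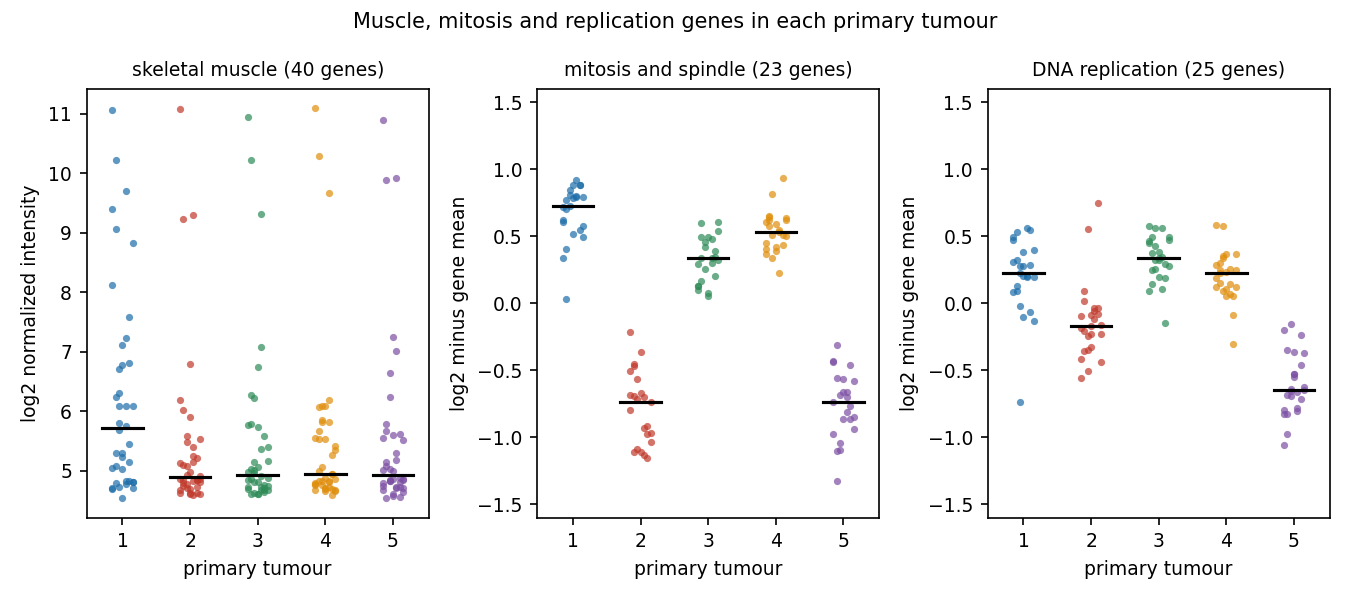
Values of each gene in primary 1 to 5 (points, with a bar at the median) for 40 skeletal muscle genes without the detection filter (left, log2 normalized intensity), 23 mitosis genes and 25 DNA replication genes (middle and right, log2 minus the gene's mean). Several muscle genes are high in primary 1 alone, mitosis genes are low in primary 2 and 5, and replication genes are lowest in primary 5.

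Skeletal muscle genes as a list were highest in primary 1, including genes that the filter of 2 arrays had left out. Of 40 genes with a named probe, 12 passed the filter, with a score of 0.46, -0.37, -0.06, -0.08 and 0.05 in primary 1 to 5. Over genes detected on all 5 arrays the highest tumour was primary 5, with a score range of 0.39 in place of 0.83, and the only further probe kept was not highest in primary 1. Without the filter, the 40 genes had scores of 0.60, -0.23, -0.15, -0.12 and -0.11, and 21 were detected in primary 1, against 7, 10, 10 and 8 in the others. Tnni2, the inhibitory troponin of fast muscle, had values of 8.12, 6.18, 5.76, 5.55 and 5.56. Myl1, a fast myosin light chain, had a value of 10.22 in primary 1 and was not detected elsewhere (at most 5.07). Acta1, skeletal muscle actin, had 9.39 against at most 4.68, and Atp2a1, the calcium pump of fast muscle, had 8.83 against at most 5.53. Other muscle genes were detected in another tumour alone, Mylk2 in primary 2 (5.90), Casq2 in primary 4 (6.08) and Ryr1 in primary 3 (5.78). Ckm, muscle creatine kinase, and Myh4, a fast myosin heavy chain, did not pass the filter. Primary 3, which had the next highest fibroblast score, had a muscle score of -0.15 without the filter. The adipocyte score stayed between -0.09 and 0.16 from 8 of 23 listed genes, and the fat cell markers Fabp4, Plin1 and Cidec did not pass the filter. Adipocyte genes detected in a single tumour were Adipoq in primary 3 (6.43), Lep (5.90) and Pparg (5.71) in primary 1, and Cd36 in primary 5 (6.02).

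Luminal epithelial genes varied little beside these lists. The score stayed between -0.13 and 0.13 (15 of 24 genes measured), and 2 of 15 members had a range of at least 2-fold, against 21.8% of all genes. The 2 were Esr1, the oestrogen receptor, with values of 8.35, 5.95, 7.34, 8.09 and 7.23, and the tight junction protein Cldn4, with 11.59, 11.01, 10.21, 11.87 and 11.47. Milk protein genes were more variable, with a score of -0.07, 0.06, -0.44, 0.07 and 0.38 (17 of 23 genes measured). Primary 3 was lowest for 8 members, against 14% of all genes, and for 2 of 2 further probes, against 12.1%. Csn2, beta-casein, had values of 13.80, 14.20, 12.18, 14.37 and 14.55, and Csn1s2b, another casein, had 12.30, 11.06, 10.77, 13.59 and 13.85.

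The remaining lists had smaller shares of measured genes or narrower spreads. The neutrophil score was -0.07, 0.60, -0.13, -0.07 and -0.34 in primary 1 to 5 (6 of 16 genes measured), and S100a9, a neutrophil calcium-binding protein, was detected in primary 2 alone (7.37). Primary 1 and primary 2 were each the highest tumour for 3 of the 6 members, against 22% and 18.9% of all genes. Ltf had 9.48 in primary 1 and 8.44 in primary 2, and Ngp, Camp, Elane and Mpo did not pass the filter. The erythrocyte score was lowest in primary 2 at -0.84 (4 of 13 genes measured), and the circadian clock score was lowest there at -0.35 (15 of 19 genes measured). The skin keratinocyte score lay between -0.26 and 0.28 (5 of 18 genes measured). The score of salivary, nerve and lymph node genes lay between -0.24 and 0.33 (4 of 16 genes measured). Housekeeping genes had scores between -0.09 and 0.06 (17 of 25 genes measured).

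Stress-related genes separated into groups with different highest tumours. AP-1 and early growth response genes, a set assembled after their values were seen, were highest in primary 2 for 7 of 10 members that passed the filter, against 18.9% of all genes. Fos, a component of AP-1, had values of 8.94, 13.36, 9.25, 11.76 and 10.43. Fosb had 5.10, 10.10, 4.86, 5.76 and 6.35, and Egr1, an immediate early transcription factor, had 10.95, 13.42, 10.69, 11.81 and 11.72. Hspa1a, the inducible heat shock protein HSP70, was instead high in primary 5 (12.30) and primary 4 (11.26) and at 8.29 to 8.49 in the other 3. Ccn2, a matricellular target of TGF-beta and YAP signalling, was lowest in primary 2 at 6.67, against 9.88 to 11.50 elsewhere. The immediate early and heat shock list as a whole had a score range of 0.67, smaller than the ranges of these members.

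Hypoxia and glycolysis genes spread little as a list, with a score of -0.25, -0.15, 0.03, 0.28 and 0.09 in primary 1 to 5. Angptl4, a secreted lipase inhibitor, had values of 8.26, 8.09, 9.96, 8.81 and 11.32, and Vegfa, the vascular growth factor, had 11.05, 11.12, 10.96, 11.94 and 12.35. Of the 21 measured members, 8 were highest in primary 4, against 16.5% of all genes, and 4 in primary 5, against 22.8%. The lowest tumour was primary 1 for 8 members, against 17.3% of all genes, and primary 5 for 6, against 20.6%. Of 8 further probes, 2 were highest in primary 4, against 15.9% of all further probes. Primary 5, with the highest Vegfa value, had an endothelial score below the mean (-0.48), and primary 4 one above it (0.74).

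Each tumour also had genes of its own, chosen by the gap to the next tumour. Primary 5 had the highest values of Hoxb5, a homeobox transcription factor of the Hoxb cluster (9.35, against 4.88 to 5.88), and of Wfdc12, a secreted protease inhibitor (11, against 6.58 to 7.53). Primary 5 was highest for 4 of 4 Hoxb genes that passed the filter, against 22.8% of all genes. The family was looked at after Hoxb5, which is 1 of the 4, was seen. Of 10 Hoxb genes with a named probe, Hoxb1, Hoxb8, Hoxb9 and Hoxb13 were detected in no tumour. The only further Hoxb probe kept was highest in another tumour. Hoxb4 had values of 5.39, 5.85, 5.41, 7.52 and 9.17, and Hoxb2 had 6.14, 5.04, 5.79, 7.82 and 8.29, with primary 4 second in both. Hoxb7, detected in primary 5 alone, had 7.86 there and at most 5.36 elsewhere. Otx1, another homeobox gene, was not detected in primary 5 (5.50) and had 8.23 to 10.90 in the rest.

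Primary 3 had the lowest values of Sftpd, the collectin surfactant protein D (6.66, against 9.08 to 10.90), of the neuropeptide Npy (10.19, against 12.53 to 13.78) and of the protocadherin Pcdh10 (7.18, against 9.53 to 10.36). Primary 1 alone had Pi16, a peptidase inhibitor of fibroblasts, above 8 (8.59), with 6.41 in primary 3 and no detection elsewhere. Vmn1r65, annotated as a vomeronasal receptor, had 9.02 in primary 1 and 6.70 in primary 3. Cldn34c1, of the claudin family, was not detected in primary 1 (4.71) and had 7.60 to 7.96 elsewhere. Primary 4 had the highest values of Ifi202b (7.43, against 5.21 to 5.78) and Mmp12, the macrophage elastase (7.65, against 5.02 to 6.10). Replication-dependent histone genes, a family looked at after the values were seen, were highest in primary 4 for 29 of 40 members that passed the filter, against 16.5% of all genes. H1f2 had values of 12.32, 12.51, 12.80, 14.12 and 13.03.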

How the data were processed

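Each Illumina probe had a raw intensity and a detection p-value per array, deposited by the authors as BeadStudio output, and a processed table of normalized intensities deposited by the authors was held beside it. BeadStudio is named in the submitters' processing notes, and neither its version nor the normalization or genome build is given in the sources used here. The processed values of a primary array kept the rank order of its raw intensities (rank correlation 1), with array medians between 151.8 and 152, so they are on a linear scale.

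The raw intensities were background-corrected with limma 3.58.1 in R 4.3.3 (nec, normexp with negative-control parameters taken from the detection p-values, offset 16), quantile-normalized over all 16 arrays and turned into log2 values. Probes with a detection p-value under 0.05 on 2 or more of the 5 primary arrays were kept, which left 13374 of 25697 probes. Gene names came from the platform annotation, which gave 1 symbol to 23978 probes and none that could be used to 1719. Of 12609 kept probes with a gene, the one with the highest mean over the 5 tumours stood for its gene, which gave 9199 genes, of which 7896 were detected on all 5 arrays. SDs, ranges and scores of 24 gene lists were computed in Python 3.11.15 with pandas 2.3.3 and numpy 2.4.6. The number of tumours, 5, limits the precision of every SD, and with 1 group no test between groups was made and no correlation across tumours was computed. Dixon's criterion was used only to mark a tumour far from the other 4. A gene not detected in a tumour was set to that array's faintest detected value to give its lower bound of fold. The recovery of known SDs by the normalization was tested on simulated data, for genes well above the background only. Values near the detection limit and the lower bounds of fold were not covered by this test.

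The genes named were the 20 with the highest means, the 20 with the largest SDs and the next 20, the 10 with the smallest SDs, for each tumour the 5 and the 3 with the largest gaps above and below the rest, up to 6 of the most variable members of each list, and defining markers. A further 12 genes of the Results lie outside this rule and were named after their values were seen: Actb, Prf1, Cd27, Icos, H2-D1, H2-T23, H2-Q2, Isg15, Cdk1, Hoxb4, Hoxb2 and H1f2. The histone genes H2ac12, H2ac10, H4c6 and H2bc15 of the closing section were likewise named after their values were seen. Genes detected in 1 tumour alone, such as S100a9, were also named after their values were seen. The lists and members were chosen with earlier results of these data known. Replicate numbers follow accession order and carry no pairing. Alternatives were the authors' processed table, no background correction, an offset of 50, normalization of the 5 arrays alone, other detection filters, the mean over probes, and leaving out each tumour.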

Additional observations from a re-analysis of the deposited data

Results flagged for a closer look

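In 15 results 1 tumour lay far from the other 4, with a gap to the next tumour of more than 0.71 of the whole range (Dixon's 95% critical value for 5 samples). The results examined were 24 list scores and 126 named genes. Chance gives such a gap in about 1 in 20 groups, and many of the genes were named because they vary, so the number of gaps has no further meaning.

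Primary 2 was far above the rest for the neutrophil score (0.711 of the range), for Ccl5 (0.754) and Ctsw (0.719), which are expressed by T and NK cells, and for Fosb (0.716). Of the 6 measured neutrophil genes, 3 were highest in primary 1. Primary 5 was far above the rest for Wfdc12 (0.785), Hoxb5 (0.778) and Fcer2a (0.741). Primary 1 was far above for the muscle troponin Tnni2 (0.753) and far below for Cldn34c1 (0.891) and Ly6d (0.734). Primary 3 was far below for H2-D1 (0.815) and B2m (0.774), the heavy and the light chain of MHC class I, and for Pcdh10 (0.737), and far above for Rpl37 (0.746), whose values ran only from 15.81 to 15.96. Primary 4 was far above for Ifi202b (0.741).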

How the results depend on the processing

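The number of genes past a range depended on the scale. Ranges of at least 2-fold and 4-fold were found for 802 and 118 genes in the authors' processed table, 743 and 112 with no background correction, 1291 and 211 with an offset of 50, and, for 4-fold, 165 among genes detected on all 5 arrays. Score ranges in the authors' table were 1.47 (endothelial), 0.75 (B and plasma cell), 0.43 (neutrophil), 0.39 (skeletal muscle), 1.23 (smooth muscle and myoepithelial) and 0.28 (skin keratinocyte). With no background correction they were 1.67 (fibroblast and matrix), 1.38 (endothelial), 1.66 (T and NK cell), 0.71 (B and plasma cell), 0.39 (neutrophil), 0.36 (skeletal muscle), 1.16 (smooth muscle and myoepithelial), 0.16 (luminal epithelial) and 0.26 (skin keratinocyte). Over genes detected on all 5 arrays they were 1.58 (fibroblast and matrix), 1.25 (T and NK cell), 0.39 (skeletal muscle, with another highest tumour) and 0.57 (adipocyte). With no filter they were 1.58 (T and NK cell), 0.28 (B and plasma cell), 0.56 (neutrophil), 0.12 (skin keratinocyte) and 0.27 (salivary, nerve and lymph node genes). With the mean over probes they were 0.94 (the same neighbouring tissues) and 0.21 (housekeeping), and the cause of these differences was not tested.

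Leaving out each tumour gave 1412 to 1724 genes of at least 2-fold and 206 to 334 of at least 4-fold. Score ranges were then 1.39 to 2.64 (endothelial), 0.84 to 2.80 (T and NK cell), 0.75 to 1.27 (B and plasma cell), 0.27 to 0.94 (neutrophil), 0.49 to 1.11 (interferon response), 0.42 to 0.83 (skeletal muscle), 0.91 to 1.99 (smooth muscle and myoepithelial), 0.09 to 0.24 (adipocyte), 0.47 to 0.93 (DNA replication), 0.14 to 0.25 (luminal epithelial), 0.45 to 0.82 (milk protein), 0.35 to 0.63 (circadian clock), 0.43 to 1.35 (erythrocyte), 0.30 to 0.54 (skin keratinocyte) and 0.08 to 0.15 (housekeeping).

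The highest and the lowest tumour of a list were kept for 24 of 24 lists in the authors' table, without background correction, with the offset of 50 and with the 5 arrays normalized alone. The highest and the lowest were kept for 22 and 22 of 24 over genes detected on all 5 arrays, 22 and 23 with no filter, and 22 and 22 with the mean over probes, where primary 5 in place of 2 was lowest for mitosis genes. Leaving out each tumour kept the highest for 18 to 21 lists and the lowest for 15 to 24, a change that follows by construction where the tumour left out was the extreme one. No paired analysis was possible because the 5 tumours form 1 group and their numbers only name them. Values near the faintest detected probe have no reliable order, and the brightest probes sit at the top of the scale.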

Other observations

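Replication-dependent histone genes, whose transcripts accumulate in S phase, did not share a single order of tumours. The following genes were chosen after their values were seen. Several H2A genes were low in primary 2 and 5, the tumours in which mitosis genes were also low. H2ac12 had values of 12.80, 12.31, 12.97, 13.01 and 11.66 in primary 1 to 5, and H2ac10 had 13.86, 12.90, 14.00, 13.95 and 12.77. Some H4 and H2B genes were instead highest in primary 4 with no low value in primary 5. H4c6 had values of 8.03, 8.93, 8.48, 10.67 and 9.49, and H2bc15 had 9.66, 10.15, 9.34, 10.63 and 10.12. Histone genes of a family are alike in sequence, and whether a probe reads several of them was not tested.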
